A study of Mus musculus with 4 samples.

Results

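Keratins are the intermediate filament proteins of epithelial cells, and each filament pairs a type I with a type II keratin. Krt8 (type II) and Krt18 (type I) form the pair of simple epithelia, which include glands and ducts, and in skin they are known from Merkel cells. Krt7 is a type II keratin of simple and ductal epithelia. Krt75 belongs to the companion layer of the hair follicle, Krt79 to the follicle canal (infundibulum) and sebaceous ducts, Krt23 is a type I keratin of differentiating epithelia, and Krtap17-1 encodes a keratin-associated protein of the hair shaft. These 7 genes were chosen by name, not by a measured value, and stand for the simple epithelial and appendage keratins among the 328 genes of the panel, which holds 9 other keratins.

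The series measured transcripts in place with Xenium, an imaging assay that decodes single transcripts of a gene panel in formalin-fixed, paraffin-embedded sections, on 4 slides of mouse tissue. The mice carried TRE-Pitx1 and Krt5-rtTA, a Tet-On pair in which the transcription factor PITX1 is switched on by doxycycline in cells that use the Krt5 promoter, which is active in basal keratinocytes. Littermates on normal chow gave the Control skin sections and littermates on doxycycline chow, begun in the telogen (resting) hair phase, gave the PITX1+ skin sections, on 1 male and 1 female slide. The other slides held healthy Control buccal (inner cheek) mucosa and male skin at day 4 after wounding. The labels name the treatment of each skin slide only as vehicle and doxycycline together, so the condition of a section was assigned from its place on the slide. Cells lying within 100 um of each other were joined into sections, which gave 3 Control, 4 PITX1+, 7 buccal and 3 wound sections. The study's legends count the Xenium skin samples in the same numbers and call only the PITX1+ ones mice. The labels do not tie a section to an animal, and p-values measure the spread between sections.

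Transcripts per section ranged from 474847 to 749248 in Control, from 2832562 to 5581930 in PITX1+ and from 136365 to 2368603 in buccal sections, and 426404 cells held the minimum of 10 transcripts. The induced gene, Pitx1, was read first in epithelial cells. On the male slide it stood at 12.4 CPM (transcripts of the gene scaled to all panel transcripts of the same cells) in Control 1 and at 1056 and 837 CPM in PITX1+ 1 and 2. Female Control 2 and 3 had 59.4 and 52.5 CPM, and the female sections assigned to PITX1+, 3 and 4, had 44.4 and 76.6 CPM. In fibroblast-like, vascular-like and immune-like cells of the same female sections Pitx1 stood at 103, 45.6, 69.3 and 35.2 CPM, so the female epithelial levels were at or near those of cells of other types in all but PITX1+ 4, where the ratio was 2.17. In the male PITX1+ sections the ratio was 16.3 and 28.6. A rise of Pitx1 like that of the male slide was therefore not seen in the female sections assigned to PITX1+, and the values below are also given within each slide. Cells were grouped into 45 clusters built without the 7 keratins and named from marker genes, each name meaning like that type: surface-like (Flg, Krt1, Krt77), outer root sheath-like (Sox9, Lgr5, Lhx2), hair matrix and shaft-like (Shh, Dsg4), sebaceous-like (Scd2, Elovl6), activated-like (Krt16, Krt17), basal-like and oral suprabasal-like (Krt4, Krt78). Follicle cells are the outer root sheath-like and the hair matrix and shaft-like cells together. A cluster led by Wfdc18 did not meet the marker minimum for a gland and is called Wfdc18-led. In sums over whole sections or over all epithelial cells, fewer cells of a type and less RNA per cell cannot be told apart.

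Of the 7 genes, 5 lie in the type II keratin cluster or directly beside it on chromosome 15 (GRCm38.p6), from Krt7 (chr15:101412403-101427806) through Krt75 (chr15:101563343-101573904), Krt79 (chr15:101929332-101940324) and Krt8 (chr15:101996711-102004342) to Krt18 (chr15:102028216-102032026). Krt18, the type I partner, is therefore the direct neighbour of Krt8. Krt23 (chr11:99477973-99493120) and Krtap17-1 (chr11:99993232-99993994) lie on chromosome 11. Promoters from RefSeq, 250 bases before to 50 after the start of the gene, were found for 7 of 7. The promoters of the Krt8 and Krt18 neighbours, whose levels followed each other most closely, and of Krtap17-1, the gene most restricted to hair cells, are shown on the gene strand, with capitals marking TATAAA.
Krt8, chr15:102004293-102004592, minus strand: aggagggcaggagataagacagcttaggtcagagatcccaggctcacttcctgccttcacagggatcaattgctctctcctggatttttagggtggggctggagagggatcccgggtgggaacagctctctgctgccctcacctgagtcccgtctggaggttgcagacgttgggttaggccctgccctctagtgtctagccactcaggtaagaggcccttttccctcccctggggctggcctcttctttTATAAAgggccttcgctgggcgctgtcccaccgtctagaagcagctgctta
Krt18, chr15:102027966-102028265, plus strand: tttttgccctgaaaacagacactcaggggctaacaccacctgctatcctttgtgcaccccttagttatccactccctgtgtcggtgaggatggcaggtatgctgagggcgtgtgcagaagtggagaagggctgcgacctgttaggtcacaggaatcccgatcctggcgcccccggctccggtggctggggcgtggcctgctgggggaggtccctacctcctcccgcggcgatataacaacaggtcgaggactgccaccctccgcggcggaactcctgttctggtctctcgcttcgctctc
Krtap17-1, chr11:99993945-99994244, minus strand: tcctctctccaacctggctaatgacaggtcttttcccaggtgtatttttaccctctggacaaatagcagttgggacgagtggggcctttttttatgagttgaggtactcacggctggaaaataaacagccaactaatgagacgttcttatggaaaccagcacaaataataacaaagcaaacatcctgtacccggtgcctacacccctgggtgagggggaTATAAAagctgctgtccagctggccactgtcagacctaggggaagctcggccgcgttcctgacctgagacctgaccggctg
TATAAA on the gene strand was in 2 of 7 of these promoters, Krt8 and Krtap17-1, and in 8.32% of 32851 promoters. The match began 31 bases before the start of the gene in Krtap17-1 but only 1 base before it in Krt8, where it spans the start. GGGCGG, searched on both strands, was in 2 of 7, Krt7 and Krt75, and in 35.7% of all. TAATCC, the core bound by bicoid-type homeodomains such as that of PITX1, was searched on both strands and was in 0 of 7 and in 7.06% of all. A match in these windows is a description of the letters only.

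The 7 genes were not all spread alike over the classes of cells of unwounded skin, but they also shared classes. Activated-like cells of PITX1+ 1, for example, held Krt23 at 7864, Krt75 at 8121 and Krt79 at 33552 CPM. By mean level of a class, Krt79 was highest in sebaceous-like cells and Krt23 in surface-like cells and the hair shaft. Krt75 was higher in follicle than in surface-like cells in every section. Krtap17-1 was highest in hair matrix and shaft-like cells. For Krt8 and Krt18 no skin class with at least 50 cells in a section came near the level of the Wfdc18-led cells of Buccal 6. The plot of mean levels by class sets them side by side. The differences between classes were tested within sections, as log2(CPM + 10), by a two-sided exact sign-flip permutation test over the 7 sections, whose smallest p is 0.0156, adjusted over the 7 genes and both pairs of classes.

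**Figure D1:**
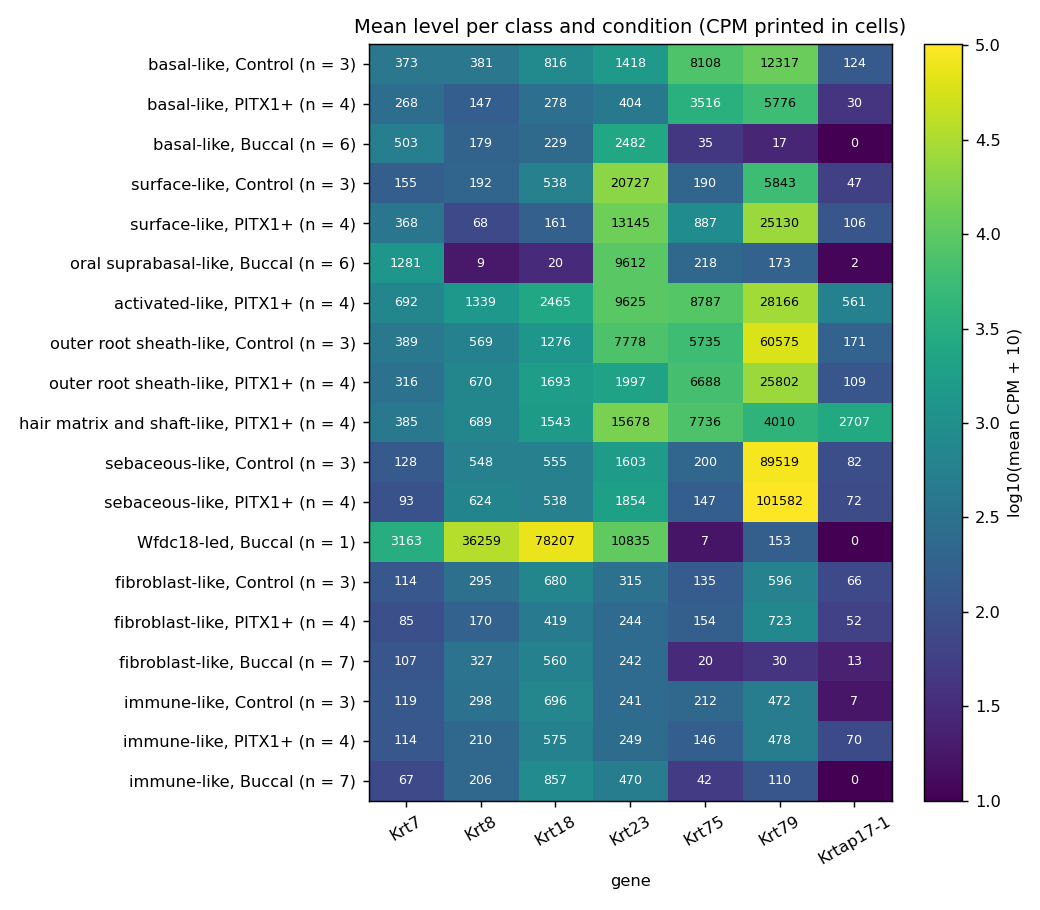
Mean level of each of the 7 genes (columns) in each class of cells and condition (rows, n sections in brackets), printed in CPM and coloured by log10(mean CPM + 10). Sebaceous-like cells carry the highest Krt79 of the skin classes and hair matrix and shaft-like cells the highest Krtap17-1. The Wfdc18-led row, from Buccal 6 as the only section with at least 50 such cells, has by far the highest Krt8 and Krt18 of the rows shown.

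Krt79 in sebaceous-like cells stood at 138834, 58169 and 71555 CPM in Control 1 to 3 and at 101886, 96806, 98686 and 108948 CPM in PITX1+ 1 to 4. In surface-like cells it stood at 4150.1, 7093 and 6285 CPM in Control and at 18967, 8709, 41807 and 31036 CPM in PITX1+. Sebaceous-like cells were therefore higher in every section (mean log2 difference 2.94, SD 1.26, n = 7, higher in 7 of 7, exact p = 0.0156, adjusted 0.0365). A cluster led by Plet1, Flt1 and Crabp2 was placed with the surface-like cells by the marker rule. It held 94720.4 and 107546 CPM in Control 2 and 3 and 103033, 117017, 117537 and 130472 CPM in PITX1+ 1 to 4. This was above the sebaceous-like cells in each of these 6 sections, and whether the surface name suits the cluster was not tested. Over the 45 clusters, the gene whose level followed Krt79 most closely was Ivl, which encodes the envelope protein involucrin (Pearson r = 0.814 of log2 levels, n = 45 clusters that share sections and depth).

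Krt79 cells were also compared by position. Outside the sebaceous-like class, epithelial cells with at least 2 Krt79 transcripts lay nearer to the nearest sebaceous-like cell than all other epithelial cells in 7 of 7 sections, by a median of 53.9 um (difference -53.9 um, exact sign-flip p = 0.0156, adjusted over the 7 genes 0.0547). Cells with Krt23 lay farther away in 7 of 7 sections, by 15.1 um (exact p = 0.0156, adjusted 0.0547). Neither passed the adjusted threshold, with a test that cannot go lower. Krt75 cells were nearer to the sebaceous-like cells in all 3 Control sections, at a median of 35.2, 54.2 and 40.1 um against 92.8, 122 and 112 um, and farther in all 4 PITX1+ sections, so that the conditions did not overlap in direction (exact p = 0.406, adjusted 0.474 over the 7 sections together).

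Krt23 was the gene of the skin surface. In surface-like cells it stood at 15603, 24428 and 22151 CPM in Control 1 to 3 and at 11278, 11503, 17874 and 11923 CPM in PITX1+ 1 to 4, and these cells, 14.6% of Control cells, held 88.7% of Control Krt23 transcripts. Follicle cells had less in every section (mean log2 difference -1.34, SD 0.291, higher in 0 of 7, exact p = 0.0156, adjusted 0.0365), as did sebaceous-like cells (-3.22, SD 0.570, exact p = 0.0156, adjusted 0.0365). In PITX1+ sections the surface-like share of Krt23 transcripts was 53.1%. There another site was the Dsg4-led cluster of the hair shaft (Dsg4, a desmosomal cadherin of hair). It held Krt23 at 16198, 18918, 48288 and 39655 CPM in PITX1+ 1 to 4, against 13556, 17294, 25295 and 24037 CPM in the Flg-led surface cluster. The hair shaft cluster was the higher in each of the 4 sections. Activated-like cells held Krt23 at lower levels, 7864, 7956, 12113 and 10568 CPM, but from 2383, 312, 5009 and 2455 transcripts.

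The depth of cells with at least 2 transcripts of a gene was read outside the Flg-led cluster, whose own cells were left out. Median distance from the nearest Flg-led cell, the outermost living layer, was 18.0, 18.9 and 20.1 um for Krt23 cells in Control 1 to 3 and 259.6, 171, 213 and 259 um in PITX1+ 1 to 4. All epithelial cells of the same sections outside the Flg-led cluster lay at 85.8, 47.8 and 53.5 um in Control and at 229, 146, 175 and 259 um in PITX1+. Outside that cluster, Krt23 cells were thus shallower than the whole epithelium in each Control section and at its depth or deeper in each PITX1+ section. The epithelium itself also reached deeper in PITX1+. The Flg-led cluster also held Krt23, so these are not the depths of all Krt23 cells. Krt75 cells lay at 157, 119 and 134 um in Control and at 276, 169.9, 315 and 389.8 um in PITX1+, deeper than the whole epithelium in every section. Krtap17-1 cells, in enough number only in PITX1+, were also deeper than the whole epithelium, at 281, 244, 301 and 412 um. Krt79 cells went the other way with condition, at 99.0, 69.3 and 77.0 um in Control, deeper than the whole epithelium, and at 191, 100.4, 123 and 168 um in PITX1+, shallower than the whole epithelium in every section. These distances were not tested.

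**Figure D2:**
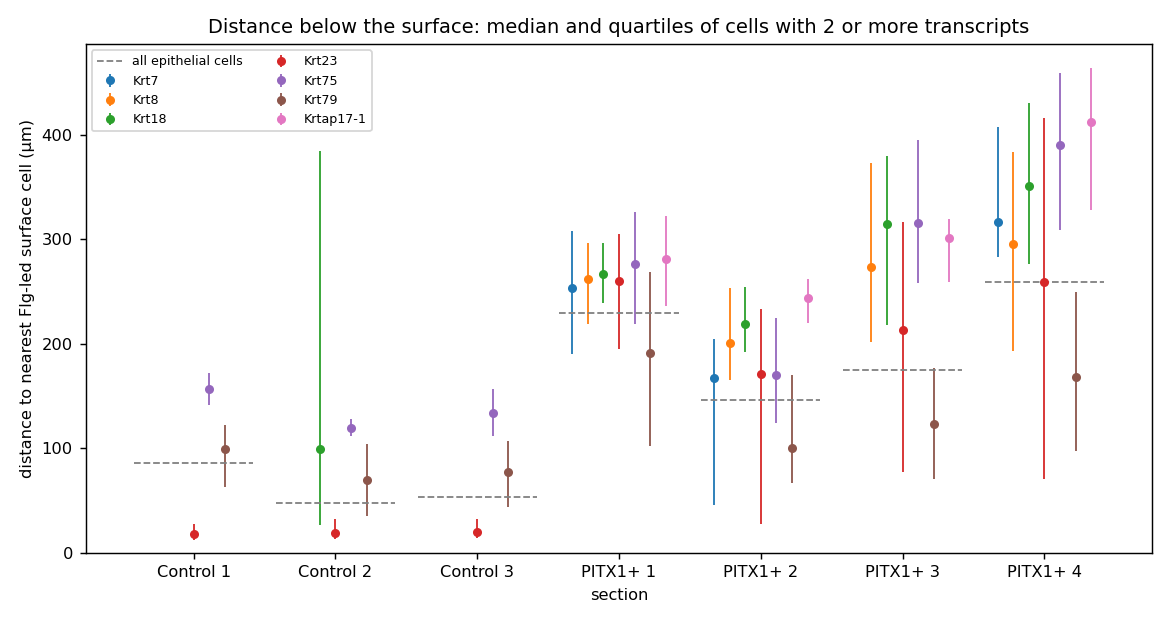
Median distance to the nearest Flg-led cell (points, with quartiles as bars, in um) of epithelial cells with at least 2 transcripts of each gene, by section. A dashed line marks all epithelial cells of that section. Cells of the Flg-led cluster itself are left out of both. Krt23 cells sit near 20.1 um or less in the 3 Control sections and at 171 um or more in the 4 PITX1+ sections, and Krt75 cells lie farther from the surface than the dashed line in every section.

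Krt75 in follicle cells stood at 10102, 2315 and 4788 CPM in Control 1 to 3 and 9165, 10948, 2541 and 3484 CPM in PITX1+ 1 to 4. Surface-like cells held 106, 237 and 226 CPM in Control and 1495, 467, 639.9 and 946 CPM in PITX1+. The follicle was higher in 7 of 7 sections (mean log2 difference 3.57, SD 1.64, exact p = 0.0156, adjusted 0.0365). The sections of the male slide were the highest in the follicle, whatever their condition. Basal-like cells, above follicle cells in all 3 Control sections, differed both by slide and by condition. They held 15237 CPM in Control 1 and 6303 and 7512 CPM in PITX1+ 1 and 2, against 3414 and 5674 CPM in Control 2 and 3 and 154 and 93.0 CPM in PITX1+ 3 and 4. PITX1+ sections were thus below Control within each slide, which was not tested.

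Krtap17-1 transcripts of PITX1+ sections lay mainly in hair matrix and shaft-like cells, which were 6.50% of cells and held 72.5% of these transcripts. That class had 0, 1 and 0 cells in Control 1 to 3 and 3644, 2330, 1126 and 5824 cells in PITX1+ 1 to 4, where Krtap17-1 stood at 4459.9, 3298, 1641 and 1429 CPM. Within the class the Dsg4-led cluster held 9338 CPM, and the next cluster of all held 875 CPM. At least 2 Krtap17-1 transcripts were found in 14.9%, 17.6%, 2.58% and 5.10% of the Dsg4-led cells of PITX1+ 1 to 4, so both male sections were above both female sections. Follicle cells were above surface-like cells in Krtap17-1 in 7 of 7 sections (mean log2 difference 2.62, SD 1.03, exact p = 0.0156, adjusted 0.0365). In the 3 of these sections with enough such cells to compare, Krt23 was also higher in Dsg4-led cells with Krtap17-1 than in those without, at 21761 against 14268 CPM in PITX1+ 1, 26153 against 15965 CPM in PITX1+ 2 and 52787 against 38285 CPM in PITX1+ 4. In PITX1+ wound 1 it was lower, at 12476 against 16254 CPM, and in the Control wound higher, at 24690.4 against 12384 CPM. Over the 45 clusters Krtap17-1 followed Dsg4 (r = 0.954) and Shh (r = 0.810), a signal of the hair matrix.

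Krt8 and Krt18 moved together over the 45 clusters (r = 0.983), and each was also close to Wfdc18 (r = 0.864 for both). These clusters pool all slides and share sections and depth. They include the female slide, where levels of the pair over all epithelial cells are mostly read below as background. In sebaceous-like cells Krt8 stood at 175, 409 and 1060.1 CPM in Control 1 to 3 and at 322, 1390.0, 508 and 275 CPM in PITX1+ 1 to 4, above surface-like cells in 7 of 7 sections (mean log2 difference 2.46, SD 1.68, exact p = 0.0156, adjusted 0.0365). In fibroblast-like, vascular-like and immune-like cells of the 4 female sections, Krt8 stood at 598, 353, 527 and 244 CPM (Control 2, Control 3, PITX1+ 3 and PITX1+ 4). The sebaceous-like values were at or near these levels, apart from Control 3, whose 1060.1 CPM rests on 6 transcripts. This difference is therefore not read as Krt8 of sebaceous-like cells on the female slide. In follicle cells it was 0, 1157 and 549 CPM in Control, where a count of 0 in Control 1 allows up to 138 CPM, and 761, 897, 589 and 479.6 CPM in PITX1+. The follicle was above the surface in 6 of 7 sections for Krt8 (exact p = 0.0469, adjusted 0.0820) and for Krt18 (exact p = 0.0312, adjusted 0.0625), which did not pass.

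The low skin levels of Krt8 and Krt18 have a measured floor. In fibroblast-like, vascular-like and immune-like cells together, which should lack both keratins, Krt18 stood at 45.4 CPM in Control 1 and at 78.0 and 40.4 CPM in PITX1+ 1 and 2, but at 1382, 809, 1372 and 560.4 CPM in the female sections Control 2, Control 3, PITX1+ 3 and PITX1+ 4. The ratio of epithelial to these cells was 18.4 and 19.5 in the male PITX1+ sections, and 0.826, 1.03, 0.880 and 1.67 in the female sections. Krt8 behaved likewise, with ratios of 28.5 and 25.4 against 0.838, 1.02, 0.655 and 1.08. On the female slide the levels of Krt8 and Krt18 over all epithelial cells were thus at or near those of cells of other types, apart from Krt18 in PITX1+ 4, and are read here as background. Activated-like cells of PITX1+ 3 and 4, with Krt18 at 2314 and 2075 CPM, were above these other cells of their sections. For Krt7 the ratio was 19.0 and 16.4 in male PITX1+ sections and 1.30, 2.09, 0.695 and 1.77 in the female sections. Female Krt7 was thus also at or near the level of other cells, apart from Control 3 and PITX1+ 4. Krtap17-1 had ratios of 38.3 and 52.1 in male PITX1+ sections, 2.70 in Control 1 and 1.25, 1.24, 0.938 and 2.81 on the female slide, so its levels in female Control sections and in all epithelial cells of PITX1+ 3 are also near those of other cells, while the hair matrix and shaft-like cells of PITX1+ 3 and 4 were far above them. On that slide 72.8% of Krt7, 78.8% of Krt8, 69.7% of Krt18 and 60.3% of Krtap17-1 transcripts lay over a nucleus, against 42.7% for all genes, and the part of this in the results was not tested. Krt23, by contrast, was at least 18.1 times higher in epithelial cells in every skin section.

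Cells with at least 2 transcripts of Krt8 and 2 of Krt18 were rare in unwounded skin. There were 54 and 28 in PITX1+ 1 and 2, all epithelial, 19 in Control 2, of which 5 were epithelial, 7 and 5 in PITX1+ 3 and 4, and 0 in Control 1 and 3. Atoh1, the transcription factor of Merkel cells, was detected in 3 of these cells and Sox2, also a Merkel cell gene, in 2. Of the 3 cells with Atoh1, 2 were in Control 2. There Atoh1 stood at 318 CPM in epithelial cells and at 370.3 CPM in fibroblast-like, vascular-like and immune-like cells. The cells of the male PITX1+ sections held a median of 192 and 204 transcripts, against 51.0 and 83.0 for all cells there, so the counts also follow depth.

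**Figure D3:**
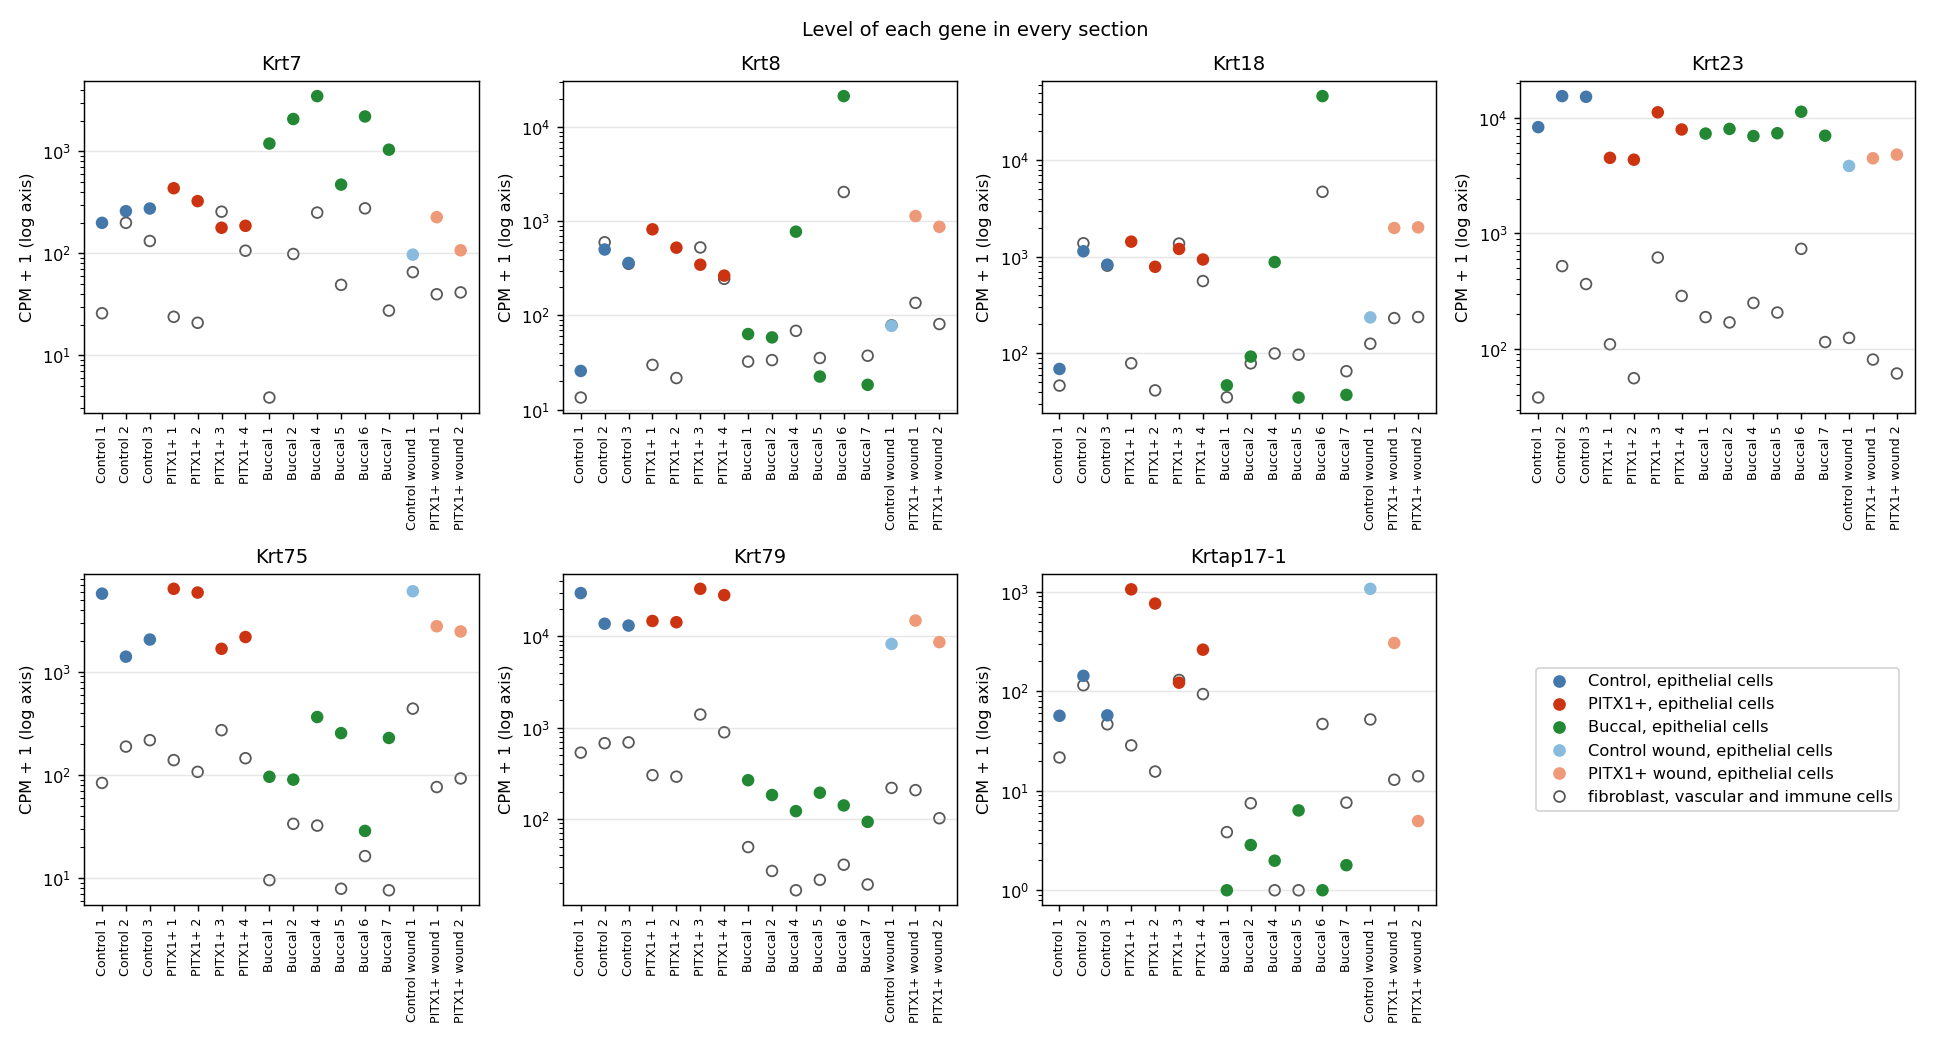
Level of each gene in every section, as CPM + 1 on a log axis, in epithelial cells (filled points, coloured by condition) and in fibroblast-like, vascular-like and immune-like cells of the same section (open points); Buccal 3, with 8 epithelial cells, is left out. Filled and open points of Krt8 and Krt18 lie together in the female skin sections Control 2, Control 3, PITX1+ 3 and PITX1+ 4 and far apart in PITX1+ 1 and 2, and Krt7, Krt75 and Krt79 separate buccal from skin sections.

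In all epithelial cells, 0 of 7 genes passed the test of PITX1+ against Control (edgeR quasi-likelihood test on transcripts summed per section, slide as covariate, Benjamini-Hochberg over all genes tested), where 28.0% of the 328 genes tested passed. At an unadjusted p under 0.05 there were 2, and DESeq2 called 2. The share of all genes by these rules is not given, here or below. Such counts are therefore not read as a result about the 7 genes. Krtap17-1 stood at 55.7, 142 and 56.3 CPM in Control 1 to 3 and at 1058, 761, 121 and 261 CPM in PITX1+ 1 to 4. Its fitted log2 difference was 2.00 (SE 0.64, edgeR adjusted p = 0.0579). The 2 male PITX1+ sections were above all others, and PITX1+ 3 was below Control 2. Krt23 stood at 8305, 15404 and 15193 CPM in Control and at 4507, 4342, 11156 and 7924 CPM in PITX1+, lower than Control within both slides (0.533 of Control on the male and 0.624 on the female slide; log2 -0.77, SE 0.28, edgeR adjusted p = 0.0764), although PITX1+ 3 was above Control 1. Krtap17-1 (1.96, adjusted p = 0.00677) and Krt23 (-0.80, adjusted p = 0.0154) were the calls DESeq2 made. Over whole sections 0 of 7 also passed by edgeR, where 20.4% of genes did, with 1 at an unadjusted p under 0.05 and 1 by DESeq2, Krtap17-1 in both (edgeR log2 1.75, adjusted p = 0.102; DESeq2 1.71, adjusted p = 0.0159).

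The median log2 difference of the 7 genes was 0.21 in epithelial cells against -0.07 over all genes tested. Of the 9 other keratins of the panel, 2 rose and 2 fell in epithelial cells. The largest changes were in Krt16, a keratin of activated epidermis, which rose by 4.65 on the log2 scale (SE 0.59, edgeR adjusted p = 0.00420), and Krt77, a keratin of differentiating skin, which fell by 3.09 (SE 0.57, edgeR adjusted p = 0.0126).

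The male and female slides differed. In the test of that difference itself 2 of 7 genes passed, where 4.57% of genes did. Krt8 stood at 24.7 CPM in the epithelial cells of Control 1, which is 4 transcripts, and at 822 and 524 CPM in PITX1+ 1 and 2, and on the female slide at 501 and 360.2 CPM in Control 2 and 3 and at 345 and 264 CPM in PITX1+ 3 and 4. PITX1+ was 27.2 times Control on the male slide and 0.707 times on the female slide (log2 of the ratio 4.52, SE 0.76, edgeR interaction adjusted p = 0.0220). The female values are those read above as background, so the 0.707 is not read as an effect on Krt8 of the epithelium. The source of these transcripts was not tested. Krt79 stood at 29744 CPM in Control 1 and at 14724 and 14269 CPM in PITX1+ 1 and 2, and at 13730.4 and 13107 CPM in Control 2 and 3 and at 33134 and 28243 CPM in PITX1+ 3 and 4. It was 0.487 times Control on the male slide and 2.29 times on the female slide (interaction log2 -2.97, SE 0.35, edgeR adjusted p = 0.00675). Pitx1 itself differed between slides by 5.40 on the log2 scale (edgeR adjusted p = 0.0171). Krt18 went the way of Krt8, at 68.0 CPM in Control 1 and 1436 and 788 CPM in PITX1+ 1 and 2. PITX1+ was 16.3 times Control on the male slide and 1.09 times on the female slide, without passing (3.17, edgeR adjusted p = 0.0714). The male slide has 1 Control section, and slide and sex cannot be told apart. No interaction passed for any of the 7 genes without Control 2, and 1 passed without Control 3 or without PITX1+ 3.

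In follicle cells 2 of 7 genes passed, where 29.3% of genes did, and the median of the 7 was -0.08 against -0.10 over all genes tested. Krt79 stood at 71497, 54939 and 55256 CPM in Control 1 to 3 and at 11897, 15879, 28524 and 18729 CPM in PITX1+ 1 to 4. All PITX1+ sections were below all Control sections, and Krt79 fell by 1.64 on the log2 scale (SE 0.29, edgeR adjusted p = 0.00251). Krtap17-1 stood at 184, 181 and 149.6 CPM in Control, where these levels rest on 4, 5 and 3 transcripts. In PITX1+ the levels were 2048, 1764, 284 and 585 CPM. The groups did not overlap, both male PITX1+ sections were far above the female ones, and the gene rose by 2.26 (SE 0.57, edgeR adjusted p = 0.0142). The hair matrix and shaft-like cells within this class, 0, 1 and 0 in Control, moved with it. In outer root sheath-like cells alone Krtap17-1 stood at 184, 181 and 149.6 CPM in Control and at 90.7, 23.3, 113 and 211 CPM in PITX1+, where 3 of 4 PITX1+ sections were below all Control sections. Krt79 lost its call with 60 clusters and turned to 0.40 with 30 clusters, without a call. The count stayed at 2 in both settings with other genes, which were Krt23 and Krt75 with 30 clusters, and Krt75 and Krtap17-1 with 60. Krtap17-1 lost it without Control 1, without PITX1+ 4, without the slide covariate, over nuclei alone and with 30 clusters, with adjusted p from 0.00291 to 0.123 over all alternatives. Of the other 9 keratins 2 rose and 2 fell in these cells.

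The follicle class was made of different clusters in the 2 conditions. In Control 1 to 3, a cluster led by Rxra, Fcgbp and Krt17 was 76.2%, 68.1% and 68.1% of outer root sheath-like cells. In PITX1+ 1 and 2, a cluster led by Sox9, Lhx2 and Lgr5, genes of the follicle stem cell region, was 72.7% and 74.4%. In PITX1+ 3 and 4, a cluster led by Ptch1 and Cntfr was 32.4% and 61.0%. Krt79 differed widely between these clusters. In the Sox9-led cluster it was 11496 CPM in Control 1 and 12483, 17134, 11811 and 18916 CPM in PITX1+ 1 to 4, with no fall in PITX1+. In the Rxra-led cluster it was 93991, 49135 and 53474 CPM in Control and 59639, 114307, 29143 and 26697 CPM in PITX1+. In the Rxra-led cluster the Control and male PITX1+ sections overlapped and the female PITX1+ sections were below every Control section. The within-cluster values were not tested.

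**Figure D4:**
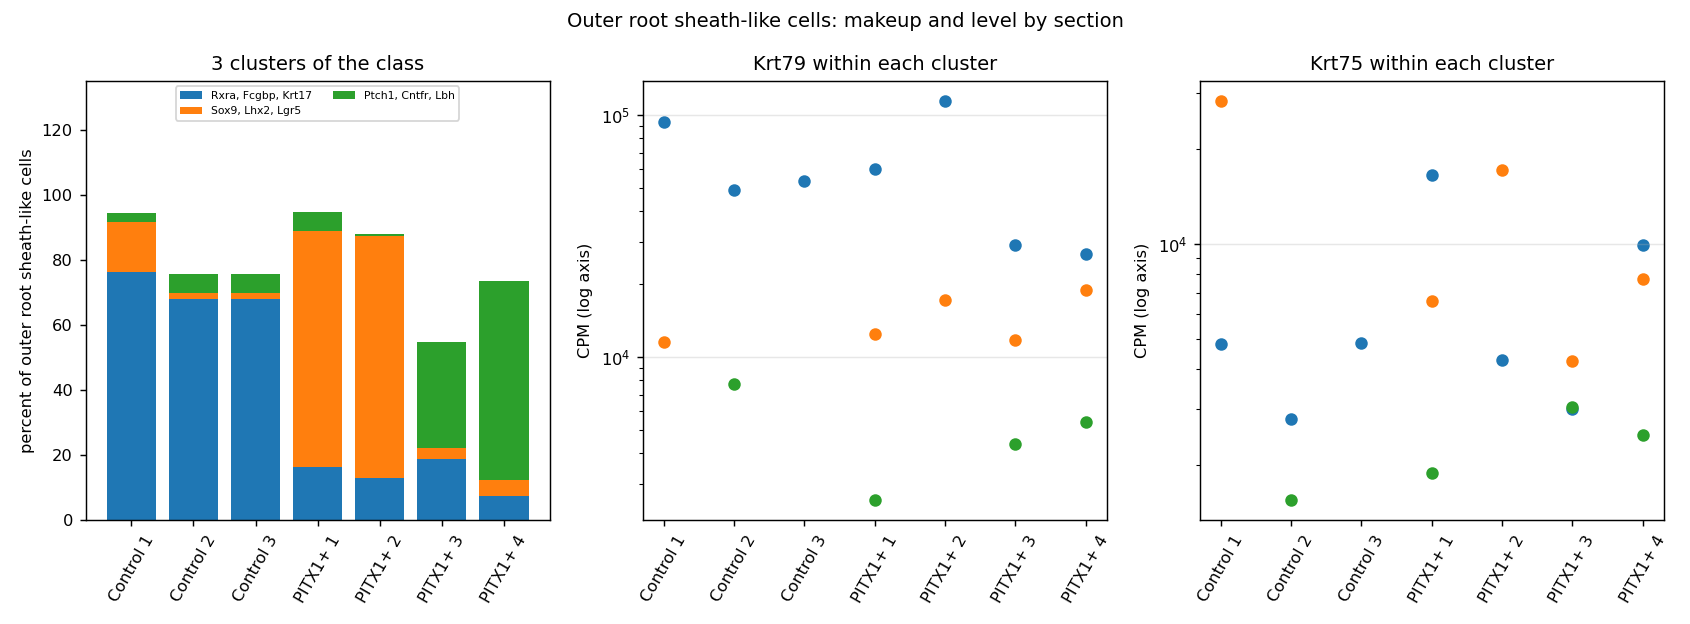
Left, share in percent of the outer root sheath-like cells of each skin section held by each of 3 clusters, named by leading genes (the bars do not reach 100% because not all cells of the class are drawn); middle and right, level of Krt79 and Krt75 in CPM on a log axis within each cluster that has 50 or more cells in a section (values of 0 are not drawn). The Rxra-led cluster is 68.1% or more of the class in Control, and Krt79 is lower in the Sox9-led and Ptch1-led clusters than in the Rxra-led cluster in every section where they are drawn.

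In surface-like cells 2 of 7 genes passed, where 9.12% of genes did, and the median of the 7 was 1.32 against -0.23 over all genes tested (-0.95 with library size in place of TMM, where both calls were kept). With the levels given above, all PITX1+ sections were above all Control sections for both Krt75 (log2 3.03, SE 0.52, edgeR adjusted p = 0.0260) and Krt79 (log2 2.77, SE 0.58, edgeR adjusted p = 0.0320). Of the 9 other keratins, 0 passed. The Plet1-led cluster, rich in Krt79, was 2.13%, 10.1% and 7.43% of surface-like cells in Control 1 to 3 and 15.6%, 8.99%, 50.2% and 35.9% in PITX1+ 1 to 4. A Krt77-led cluster that was the largest in Control had 45.9% and 57.7% in PITX1+ 1 and 2, where it was still the largest, and 0.983% and 0.0479% in PITX1+ 3 and 4. A Krt1-led cluster was 0.0592% in Control 1 and was not found in Control 2 and 3. It was 1.16%, 0.430%, 23.0% and 49.8% in PITX1+ 1 to 4. Without the Plet1-led cluster, Krt79 stood at 1723, 2623 and 2411 CPM in Control and at 3763, 2075, 5159 and 8635 CPM in PITX1+, so that PITX1+ 2 lay within the Control range (2.07, edgeR adjusted p = 0.119). Krt75 then stood at 109, 235 and 222 CPM against 576, 413, 63.9 and 289 CPM, with PITX1+ 3 below Control (1.59, edgeR adjusted p = 0.151). Both calls were also lost without Control 2, Control 3, PITX1+ 3 or PITX1+ 4 and, for Krt79, without PITX1+ 1. Krt7 stood at 119.7 CPM in Control 1 and at 784 and 386 CPM in PITX1+ 1 and 2 of the male slide, against 174 and 172 CPM in Control 2 and 3 and 152 and 151 CPM in PITX1+ 3 and 4, and did not pass (log2 1.37, SE 0.43, edgeR adjusted p = 0.0846).

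In sebaceous-like cells 4 of the 7 genes passed the filter on low values, Krt8, Krt18, Krt23 and Krt79, and 0 passed the test by edgeR, at an unadjusted p under 0.05 or by DESeq2, where 11.7% of the 196 genes tested did by edgeR. Of the other keratins of the panel 6 were tested and 1 fell, Krt77. Krt79 there differed by 0.24 (SE 0.45, edgeR adjusted p = 0.797). Activated-like cells, absent from Control sections, could be described only within PITX1+. They held Krt75 at 8121, 16091, 3855 and 7081 CPM, Krt8 at 2465, 2066, 505 and 319 CPM and Krt18 at 2871, 2601, 2314 and 2075 CPM in PITX1+ 1 to 4. In PITX1+ 3 and 4 the Krt8 values stood beside 527 and 244 CPM in the fibroblast-like, vascular-like and immune-like cells and are read as near background. Krt8 and Krt18 were higher in both male than in both female sections, and Krt75 was above the level of follicle cells in PITX1+ 2, 3 and 4.

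Buccal mucosa had more Krt7 and far less Krt75 and Krt79 than Control skin. Over whole sections 4 of 7 genes passed, where 38.1% of genes did, and in epithelial cells the same 4 passed, where 52.9% did. The epithelial test used 6 buccal sections, since Buccal 3 had 8 epithelial cells, and tissue and slide cannot be told apart. Krt7 in epithelial cells stood at 198, 258 and 274 CPM in Control 1 to 3 and, over the 6 buccal sections, at 471 at the lowest, 1634 at the median and 3485 CPM at the highest. Every buccal section was above every Control section (log2 4.17, SE 0.63, edgeR adjusted p = 0.000435). The fitted values use TMM scaling, under which the median of all genes in epithelial cells was 0.08, against -1.20 with library size, the scale of the CPM. With library size the difference of Krt7 was 2.84 (edgeR adjusted p = 0.00332), and Krt75, Krt79 and Krtap17-1 kept their calls and direction. Over whole sections the difference was 3.27 (SE 0.86, edgeR adjusted p = 0.0117), a call lost over nuclei alone. Of the 9 other keratins 3 were higher and 3 lower in buccal epithelial cells, with Krt4, a keratin of oral epithelium, the highest (log2 11.89) and Krt77 the lowest (-12.42).

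Krt79 stood at 92.0, 161 and 265 CPM at the lowest, median and highest buccal section, below all Control sections (log2 -5.54, SE 0.51, edgeR adjusted p = 3.13e-05). Krt75 stood at 27.6, 161 and 363 CPM, also below Control, where epithelial cells held 5719.9, 1399.9 and 2053 CPM (log2 -2.84, SE 0.78, edgeR adjusted p = 0.0116, lost with 60 clusters and without Control 1). Krtap17-1 stood at 0, 0.884 and 5.35 CPM, from 3 transcripts or fewer a section (log2 -4.41, SE 0.84, edgeR adjusted p = 0.00167). On the buccal slide 2.11% of decoded Krtap17-1 transcripts reached the quality score of 20, against 63.7% to 75.8% on the skin slides. With transcripts of any quality the whole-section difference of Krtap17-1 was 0.73 in place of -4.06, so its direction rests on that quality limit.

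Within buccal epithelium, the oral suprabasal-like layer held most Krt7 and Krt23 transcripts. Krt7 there stood at 541, 1391 and 2062 CPM at the lowest, median and highest section, and that layer held 58.6% of buccal Krt7 transcripts and 85.6% of buccal Krt23 transcripts. The layer was not the highest site of Krt7, which stood at 44184 CPM in 101 activated-like cells of Buccal 4 and at 3163 CPM in the Wfdc18-led cells of Buccal 6. The few Wfdc18-led cells of 3 other sections held more, at 87827 CPM in 20 cells of Buccal 2 (57 transcripts), 69977 CPM in 5 cells of Buccal 3 (31 transcripts) and 69469 CPM in 21 cells of Buccal 4 (119 transcripts). Krt23 in this layer ranged from 8312 to 14692 CPM. Its epithelial level was 7301, 8013, 6952, 7357, 11286 and 7001 CPM over the buccal sections, with 5 of 6 below every Control section. The fitted difference turned with the scaling, at 0.69 with TMM (edgeR adjusted p = 0.0528, and 0.73 with adjusted p = 0.0289 by DESeq2) and at -0.70 with library size (edgeR adjusted p = 0.0552), so no direction is given for Krt23. Krt8 and Krt18 were low in the layer, at 2.01 to 20.1 and 11.9 to 33.5 CPM. Of its Krt7 cells, 0.553% to 1.42% held Krt8 or Krt18, and those Krt7 cells had a median of 315 to 604 transcripts against 138 to 251 in the other cells of the layer. Krt7 was thus found in oral suprabasal-like cells largely without the simple epithelial pair.

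The simple epithelial pair itself was concentrated in Buccal 6. In epithelial cells, Krt8 stood at 17.3, 59.9 and 21445 CPM at the lowest, median and highest buccal section and Krt18 at 33.9, 68.7 and 46213 CPM, the highest being Buccal 6 for both. The test over sections did not pass for either (Krt8 log2 4.76, SE 2.53, edgeR adjusted p = 0.141; Krt18 4.64, SE 2.65, edgeR adjusted p = 0.168). In that section 2560 Wfdc18-led cells were found, with 21 or fewer in any other section. They held Krt8 at 36259 CPM in 92.3% of cells and Krt18 at 78207 CPM in 98.3% of cells, against 125 and 168 CPM in the other epithelial cells of the section. Krt7 was in 26.8% of the Wfdc18-led cells, at 3163 against 812 CPM. Krt23 (10835 against 11934 CPM) and Krt79 (153 against 120.1 CPM) were similar in value, and Krtap17-1 was 0 of 2560 cells. Sox2 stood at 24937 CPM in these cells and at 5643 CPM in the other epithelial cells. Wfdc18, a gene of salivary and other secretory epithelia, stood at 15797 against 480.2 CPM. These values come from the 1 section with at least 50 such cells and have no replicate of that size. The few Wfdc18-led cells of Buccal 2, 3 and 4 held Krt8 at 33898, 24831 and 45534 CPM, from 22, 11 and 78 transcripts. They held Krt18 at 29276, 40632 and 59545 CPM, from 19, 18 and 102 transcripts. The 2 cells of Buccal 7 held 4 Krt8 and 6 Krt18 transcripts, and the 2 of Buccal 5 held 0 of either. The large number of such cells was thus particular to Buccal 6. Krt8 there lay within the range of Buccal 2, 3 and 4, while Krt18 was above and Krt7 below each of them. In skin, the Wfdc18-led cells of PITX1+ 1 and 2 (21 and 18 cells) held 0 Krt8 and 0 Krt18 transcripts. Krt75 stood there at 24869 and 25581 CPM, from 38 and 33 transcripts. The 3 such cells of Control 2 held 8 Krt8 and 10 Krt18 transcripts.

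A smaller group was in Buccal 4. Outside the Wfdc18-led cluster, 247 cells of that section held at least 2 transcripts of Krt7 and at least 2 of Krt8 and Krt18 together, of which 172 were in outer root sheath-like and 37 in activated-like clusters, and Buccal 2 had 31. In Buccal 4 they lay at a median of 5.67 um from the next such cell and held Krt7 at 49488, Krt8 at 20274 and Krt18 at 22253 CPM. The maps of cells show them as compact patches. These cluster names were given over all slides together, and whether they suit cells of the mouth was not tested.

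**Figure D5:**
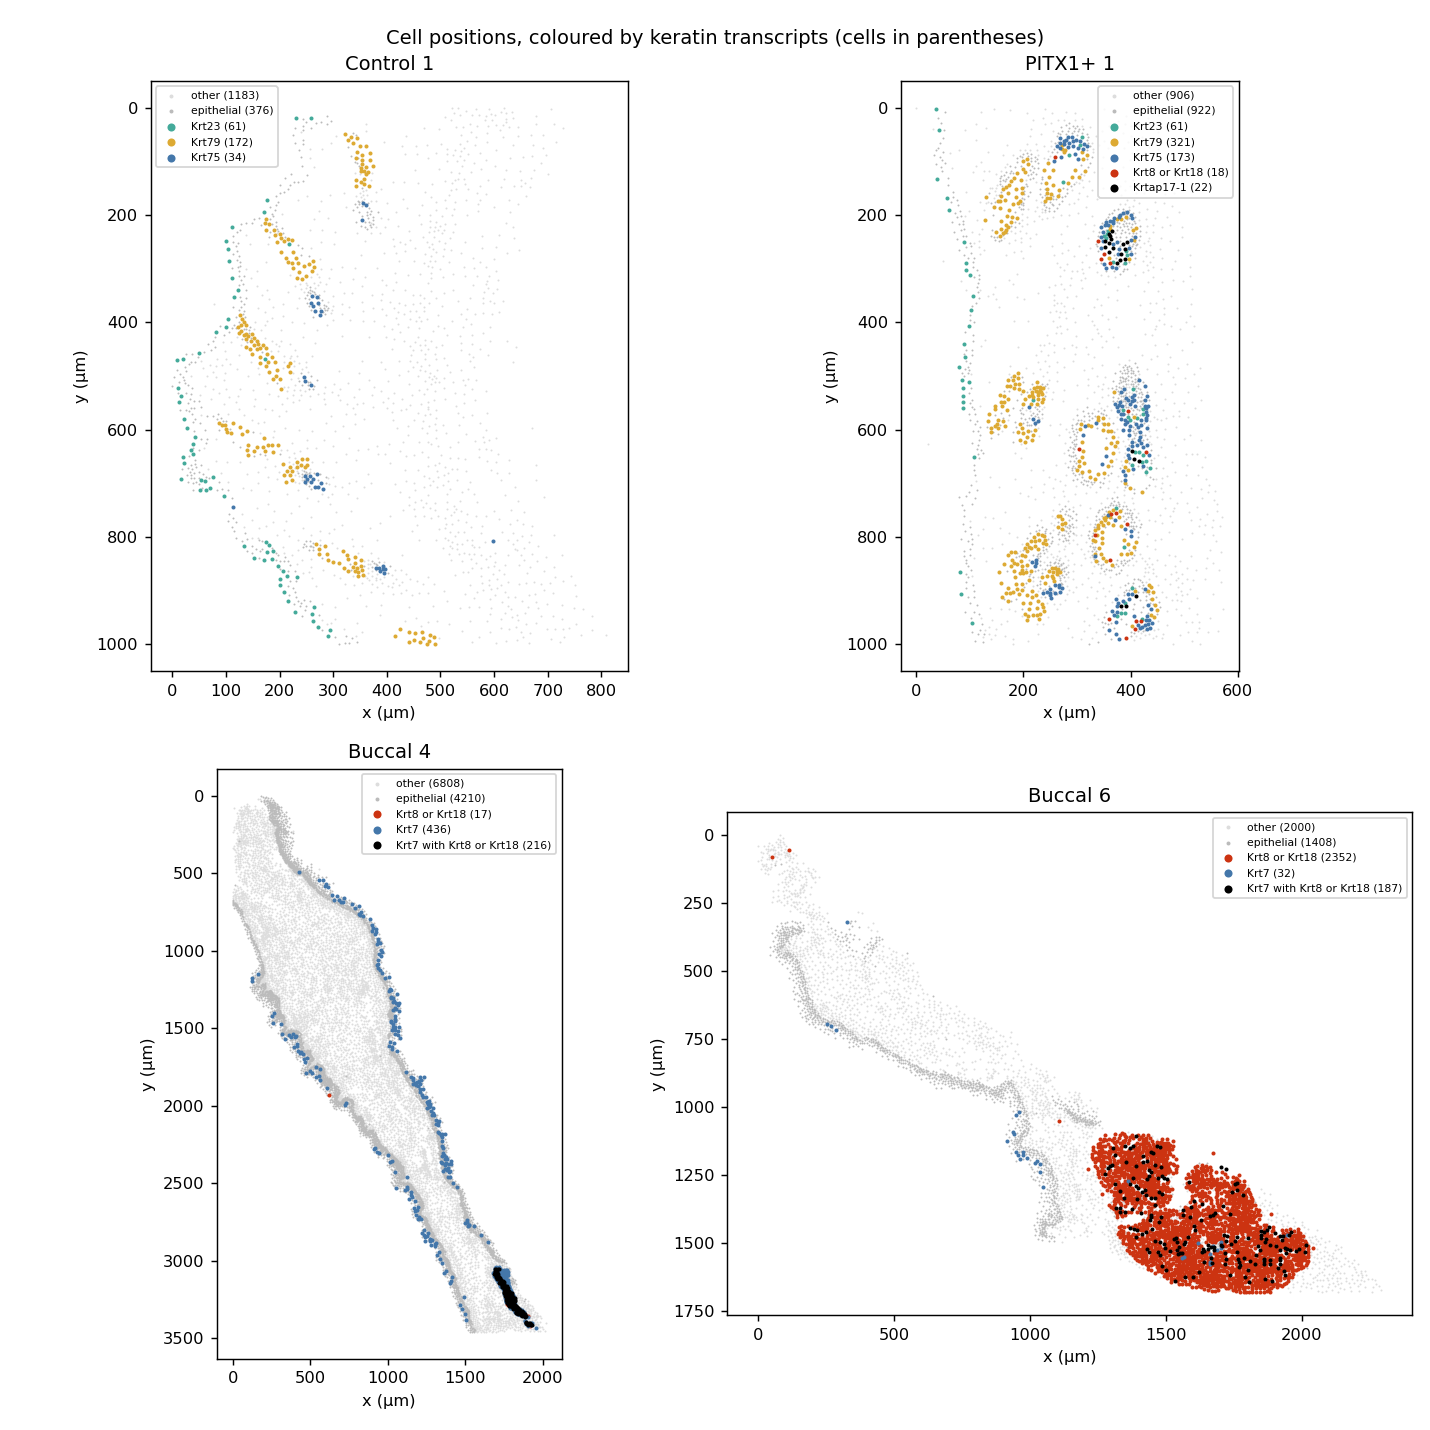
Positions in um of cells with the listed transcripts (coloured points) over other epithelial cells and remaining cells (grey) in Control 1, PITX1+ 1, Buccal 4 and Buccal 6; in skin a mark needs at least 2 transcripts of Krt23, Krt79, Krt75 or Krtap17-1 or 3 of Krt8 and Krt18 together, in buccal mucosa 2 of Krt7 or 3 of Krt8 and Krt18 together. The skin windows hold 0 cells marked for Krtap17-1 in Control 1 and 22 in PITX1+ 1, and Buccal 6 shows 2352 cells with Krt8 or Krt18 in compact blocks apart from the surface epithelium.

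In wounds the comparison is of 1 Control with 2 PITX1+ sections and was not tested; exact 95% Poisson intervals cover counting error only. In epithelial cells 6 of 7 genes lay outside the Control interval in both PITX1+ wounds with no overlap of intervals, where 59.1% of the 328 panel genes did so by the same rule. Krt8 stood at 76.5 CPM (interval 57.6 to 99.6) in the Control wound and at 1138 and 873 CPM in the PITX1+ wounds. Krt18 stood at 235 CPM and at 1989.8 and 2020.3 CPM. The ratio of epithelial cells to fibroblast-like, vascular-like and immune-like cells was 1.88 in the Control wound against 8.63 and 8.52 for Krt18, and 0.987 against 8.45 and 10.9 for Krt8, so the epithelium stood above the other cells only in the PITX1+ wounds for Krt8. Cells of any type with at least 2 transcripts of each numbered 5 of 18276, 196 of 38198 and 240 of 66959, and 3, 170 and 206 of them were epithelial. Krt23 stood at 3832 CPM against 4465 and 4802 CPM, and Krt79 at 8251 CPM against 14885 and 8638 CPM. Krt75 was lower, at 6037 CPM against 2761 and 2458 CPM, and so was Krtap17-1, at 1071 CPM against 305 and 3.96 CPM. Hair matrix and shaft-like cells were 18.1% of epithelial cells in the Control wound and 6.79% and 0.532% in the PITX1+ wounds, and activated-like cells 5.20% against 31.1% and 43.0%, and the part of this makeup in the values was not tested. Krt7 stood at 96.0 CPM (interval 74.7 to 121) in the Control wound, below the 225 CPM of PITX1+ wound 1 (202 to 250.2) and overlapping the 106 CPM of PITX1+ wound 2 (91.2 to 122). Pitx1 stood at 54.2 CPM in the Control wound and at 628 and 325 CPM in the PITX1+ wounds.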

How the data were processed

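The authors deposited, for each of the 4 slides, the instrument's table of decoded transcripts, each with a quality score and its position in um, and a table of segmented cells with transcript counts per cell; the software version and the segmentation settings are not given in the sources used here. Control calls were 0.0375% to 0.0980% of calls. For this work, the deposited transcripts that reached quality 20 were assigned to cells and totalled for each of 328 genes, and cells with at least 10 transcripts were kept. Cells were joined into sections by distance (100 um, wounds 200 um), sections under 2000 cells were left out, and conditions were assigned from the order of sections by mean x position, which the labels do not state per section.

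Cells were clustered on all genes but the 7 keratins (40 principal components, 45 k-means clusters) and named where at least 3 markers of a type were raised 1.5-fold and at least 2 were among the 10 leading genes. Doublets were not called. Counts were summed per section and class (at least 50 cells) and tested with edgeR 4.0.16 (filterByExpr, TMM, quasi-likelihood test, slide as covariate for PITX1+ against Control) in R 4.3.3, with Benjamini-Hochberg adjustment over all genes tested and an adjusted p threshold of 0.05. The fit was tested on simulated data. DESeq2 1.42.0 was an alternative. Levels are given as CPM, counts scaled to all panel transcripts of the same cells, and intervals and limits from counts of 0 or 3 cover counting error only. The 7 genes are named throughout; beside them the text names Pitx1, Atoh1, Sox2, the other keratins with the largest change, and the genes whose level over clusters was most alike; Wfdc18 and the leading genes of clusters were named after their values were seen. The genes, lists and comparisons were chosen with earlier results of these data known. Other alternatives were library-size scaling, no gene filter, transcripts over nuclei or of any quality, 20 transcripts per cell, 30 or 60 clusters, no slide covariate and each section left out in turn.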

Additional observations from a re-analysis of the deposited data

Results flagged for a closer look

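In 49 groups of 4 to 7 sections, 8 had a section far from the others by Dixon's ratio of the gap to the range. Chance gives about 1 in 20 for separate groups, but these groups overlap, since whole sections include their epithelial cells. Buccal 6 stood high for Krt8 (0.969) and Krt18 (0.984) over whole sections and for Krt8 (0.965), Krt18 (0.982) and Krt23 (0.755) in epithelial cells. Buccal 5 stood high for Krtap17-1 in epithelial cells (0.654), from 3 transcripts. PITX1+ 3 stood high for Krt23 in surface-like cells (0.902), and PITX1+ 4 stood low for Krt75 in sebaceous-like cells (0.933).

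The effect of PITX1+ in epithelial cells differed between the male and the female slide by the interaction test for Krt79 (log2 -2.97). The same test passed for Krt8 (log2 4.52), whose female epithelial levels were at or near those of non-epithelial cells (ratios 0.838, 1.02, 0.655 and 1.08), so no effect on Krt8 is read on the female slide.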

How the results depend on the processing

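Counts of the 7 genes that passed, or that kept a direction in every section where so named, are given here where they moved by more than 1.5 times. The share of all genes that passed under each setting is not given, so these counts are not set against the panel. For PITX1+ against Control, whole sections gave 1 with DESeq2 in place of 0. Epithelial cells gave 2 with DESeq2, 1 with transcripts of any quality and 1 with 60 clusters, in place of 0. Follicle cells gave 1 without the slide covariate and 1 over nuclei, in place of 2. Surface-like cells gave 4 with DESeq2 and 0 without the slide covariate, with 30 clusters and without the Plet1-led cluster, in place of 2. Sebaceous-like cells gave 1 with 60 clusters in place of 0. Genes higher in follicle than surface-like cells in every section numbered 1 with 30 clusters and 4 without the Plet1-led cluster, in place of 2. Genes higher in sebaceous-like than surface-like cells numbered 1 over nuclei and 1 with any quality, in place of 2. Leaving out each section in turn gave 0 to 1 for whole sections, 0 to 2 for epithelial, 1 to 2 for follicle, 0 to 3 for surface-like and 0 to 1 for sebaceous-like cells. It gave 4 to 4 for buccal whole sections, 3 to 5 for buccal epithelial cells and 0 to 3 for the difference between slides (Control 1, the only male Control section, could not be left out). Genes with the same direction in every section kept, which is not a test, were also counted. They numbered 2 to 4 for follicle over surface, 2 to 3 for sebaceous over surface and 1 to 2 for nearness to sebaceous-like cells. With 30 clusters the follicle differences between PITX1+ and Control reversed to 4.38 for Krt23 (edgeR adjusted p = 4.27e-06), 2.93 for Krt75 (0.00116) and 0.40 for Krt79, so that the count of 2 held neither Krt79 nor Krtap17-1. With 60 clusters it held Krt75 (-1.53, edgeR adjusted p = 0.00273) and Krtap17-1. Library size in place of TMM moved the median of all genes by -1.28 in buccal epithelial cells, -0.54 in buccal whole sections and -0.71 in surface-like cells. With any quality the buccal whole-section difference of Krtap17-1 reversed to 0.73. Over single genes, 920 alternative values kept the side of the threshold, 68 lost the call, 28 gained it and 4 reversed. A value counted as reversed only where it or the main value was called. A turn between uncalled values, as for buccal epithelial Krt23 with library size, is therefore among the 920. The cause was not tested. The settings without the Plet1-led cluster, those that leave sections out of the test between slides and the wounds over nuclei were chosen after seeing the data. No paired analysis was possible because replicate numbers only name a section's place on a slide. Control skin sections held fewer transcripts than PITX1+ sections, and their follicle counts of Krtap17-1 and Krt8 were 0 to 32 a section, which limits every fold change of these genes.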
